A study of Homo sapiens with 15 samples.

Results

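LCP2 and the proteins it works with in immune receptor signalling were followed through RNA sequencing of K562 cells that lacked an HSP90 isoform or had become resistant to the HSP90 inhibitor PU-H71. The group holds 10 genes, taken by symbol from the study's 2 expression tables: the adaptors LCP2, LAT, LAT2, GRAP2, GRAP and FYB1, the kinases SYK and BTK, and the effectors VAV1 and PLCG2. Of these, 9 were analysed in the knockout table, which holds 17769 genes, and all 10 in the resistance table, which holds 60510. GRAP was analysed only in the resistance table. K562 is a BCR-ABL1+ leukemia line with an erythroid character. The knockout table covers 3 libraries of empty vector control cells (EV), 3 of HSP90α-KO and 3 of HSP90β-KO. The knockout cells were made from K562 cells that already expressed Cas9 after viral transduction and puromycin selection. They received a guide RNA by lentivirus, were selected on fluorescence and are called clones in the paper. The resistance table covers 3 libraries of parental cells, grown with DMSO, and 3 of PUHr cells, grown with rising amounts of PU-H71. Both were cultured for a long time and selected as single cell clones. The labels do not give the number of clones behind a group, so the effect of a genotype or drug and that of a clone cannot be told apart. The authors call the replicates independent, and the labels do not say whether they are separate cultures, so the p values measure the spread between these libraries. The libraries held 19594381 to 26216730 reads on genes in the knockout table and 21584840 to 24477692 in the resistance table, and a read was worth between 0.0381 and 0.0518 CPM, the read count scaled to library size. The values are log2 CPM with a prior count of 2 reads, which makes the fold changes of weakly expressed genes appear smaller.

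Antigen and Fc receptors have no kinase of their own and signal through ITAM motifs, which SRC family kinases phosphorylate. SYK or its relative ZAP70 then docks on the ITAM and phosphorylates the membrane adaptors LAT and LAT2 and the cytosolic adaptor LCP2, also called SLP-76. LCP2, joined to LAT by GRAP2 (GADS), gathers VAV1, the TEC family kinases such as BTK, and phospholipase C gamma, which opens the calcium and RAS routes. FYB1 (ADAP) binds LCP2 and links it to integrins. In blood the pathway is best known from T cells, B cells, mast cells and platelets, and VAV1, SYK and BTK are also used by myeloid cells.

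The knocked out genes followed the labels. HSP90AA1, the gene of HSP90α, was at 92.6, 88.0 and 90.8 CPM in HSP90α-KO and at 716, 683 and 713 CPM in EV. HSP90AB1, the gene of HSP90β, was at 1939, 1909 and 1889 CPM in HSP90β-KO and at 2823, 2782 and 2812 CPM in EV, a smaller difference with no overlap. A list of 7 erythroid markers of K562 (GATA1, TAL1, KLF1, HBG1, HBG2, HBZ and TFRC) was tested in both tables. Their summed level was 806 to 819 CPM in EV, 746 to 768 CPM in HSP90α-KO, 712.8 to 732.5 CPM in HSP90β-KO, 2638 to 2668 CPM in parental cells and 1871 to 1963 CPM in PUHr, with TFRC the most abundant in each group. The sums hide differences between the markers. In HSP90α-KO HBG2 and HBZ were lower, with log2(FC) values of -1.22 and -1.04, HBG1 had -0.73, TAL1 -0.40 and TFRC -0.04, and GATA1 and KLF1 were higher, at 0.18 and 0.24. In PUHr HBG1 had -0.97, HBG2 -0.66, TFRC -0.66, KLF1 -0.35, GATA1 -0.26 and HBZ 0.00, while TAL1 was higher, at 0.51. In HSP90β-KO HBZ had -0.68, KLF1 -0.65, GATA1 -0.30, TFRC -0.08, HBG2 -0.02, TAL1 -0.01 and HBG1 0.05.

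LCP2 and FYB1 were higher in HSP90α-KO, whereas SYK, PLCG2, VAV1 and FYB1 were lower in PUHr. To count as changed, a gene needed an adjusted p from limma under 0.05 and a log2(FC) above 1 or below -1. In HSP90α-KO against EV, 2 of the 9 tested genes were changed and higher and 0 were changed and lower, while 5.32% of all 17039 tested genes were changed and higher and 5.01% changed and lower. At the adjusted p alone 7 of the 9 passed, 4 higher and 3 lower, against 54.2% of all tested genes. In HSP90β-KO against EV, 0 of the 9 were changed, where 1.83% of all tested genes were changed and higher and 2.65% changed and lower, and 4 of the 9 passed the adjusted p from limma alone against 34.4%. Between the knockouts, 3 of the 9 were changed, all higher in HSP90α-KO, and 7 passed the adjusted p, against 7.14% changed and higher, 5.57% changed and lower and 59.9% at the adjusted p. In PUHr against parental cells, 4 of the 9 were changed and lower and 0 changed and higher, with 4.69% of all 16503 tested genes changed and lower and 5.37% changed and higher. The genes changed and lower numbered 774, and 488, 498 and 493 without parental replicate 1, 2 or 3, each time with the same 4 members changed. There 8 of the 9 passed the adjusted p alone, 6 lower and 2 higher, against 51.4%. The adjusted p alone was thus passed by a large share of all genes in every comparison. The members were chosen with earlier results of these data known, so their counts beside these shares are no support.

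The filter on low values was met in every library by 8 of the 9 genes in the knockout table, with LAT below it in some, and by all 9 tested genes in the resistance table. The median log2(FC) over the 9 was 0.15 in HSP90α-KO, -0.05 in HSP90β-KO and -0.72 in PUHr. Over all tested genes it was -0.01, 0.00 and 0.00. Both knockouts were set against the same EV libraries, so their differences from EV are not independent of each other. Each difference with its interval is drawn in the plot of log2 fold changes.

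**Figure D1:**
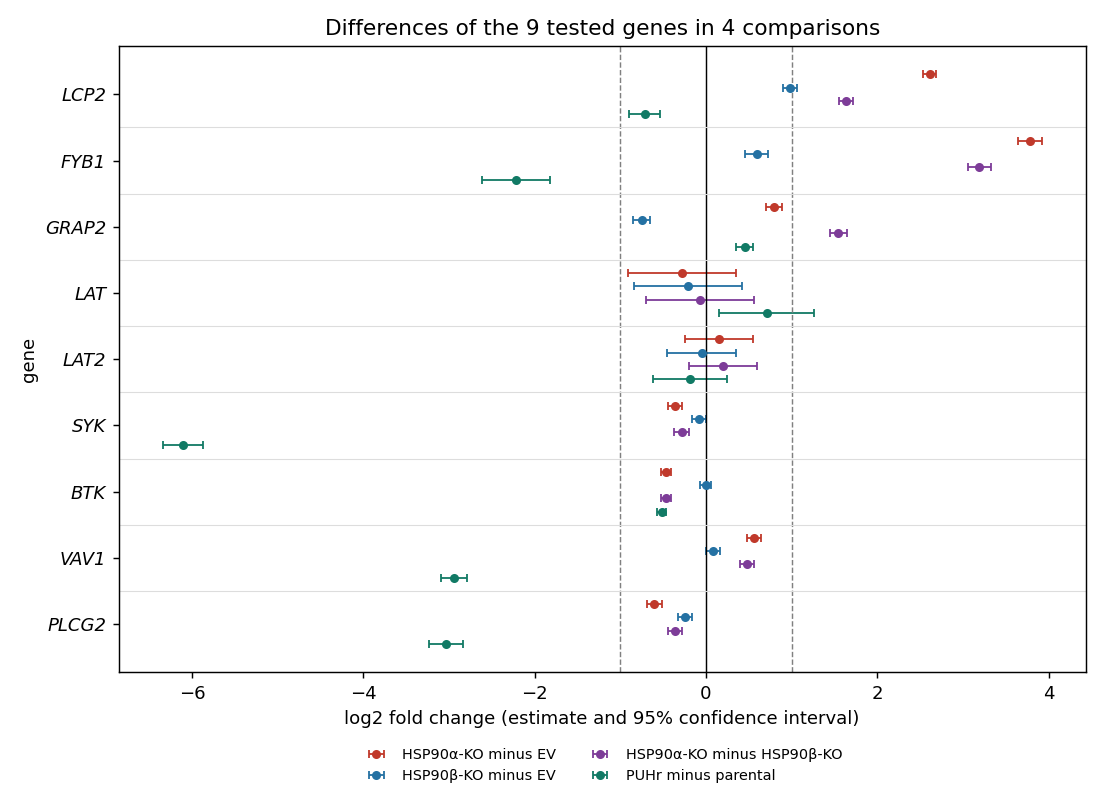
Log2 fold change of the 9 tested genes (horizontal axis, log2 scale) in 4 comparisons of 3 libraries against 3, with points for the limma estimates and bars for 95% confidence intervals; dashed lines mark 1 and -1. FYB1 at 3.78 and LCP2 at 2.61 lie farthest to the right in HSP90α-KO minus EV, and SYK at -6.11 lies farthest to the left in PUHr minus parental.

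LCP2 (ENSG00000043462, chromosome 5, 170246233 to 170297815, minus strand, GRCh38) encodes the scaffold around which the complex forms. Its level was 32.4, 30.0 and 31.6 CPM in EV, 194, 188 and 193 CPM in HSP90α-KO and 62.2, 62.2 and 61.0 CPM in HSP90β-KO. The 3 groups did not overlap, with HSP90β-KO between the others. In HSP90α-KO the mean was 6.12 times that of EV. In HSP90β-KO it was 1.97 times that of EV, a log2(FC) of 0.98 (95% confidence interval 0.90 to 1.06, adjusted p = 7.2e-17 from limma), just below the threshold for a changed gene. Without EV replicate 1 this value was 1.00 and LCP2 was counted as changed. The direct contrast of the knockouts was 1.63 (interval 1.55 to 1.71). In the resistance table LCP2 went the other way. Parental libraries had 15.7, 15.5 and 15.8 CPM and PUHr libraries 9.60, 8.36 and 10.7 CPM, again with no overlap. The log2(FC) was -0.72 (interval -0.90 to -0.53, adjusted p = 5.3e-06 from limma), so LCP2 fell in PUHr without passing the fold threshold.

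FYB1 (ENSG00000082074, chromosome 5, 39105252 to 39274528, minus strand) encodes the LCP2 partner that leads to integrin activation. It had 7.32, 7.57 and 8.16 CPM in EV and 105, 105 and 111 CPM in HSP90α-KO, a 13.9 times higher mean. HSP90β-KO libraries had 12.1, 12.3 and 10.5 CPM. As for LCP2, the groups were separated and HSP90β-KO lay between the others, but much closer to EV. The log2(FC) was 3.78 in HSP90α-KO (interval 3.65 to 3.92, adjusted p = 2.8e-25 from limma), which ranked 43 from the highest among the 17039 tested genes. It was 0.59 in HSP90β-KO (interval 0.46 to 0.73, adjusted p = 4.4e-08 from limma). In parental cells FYB1 was weakly expressed, at 61, 71 and 60 reads per library, and in PUHr 13, 14 and 11 reads remained. Every PUHr library thus lay well below every parental library. This was a log2(FC) of -2.22 (interval -2.62 to -1.82, adjusted p = 1.4e-07 from limma), which became -1.26 when 1 CPM was added before the logarithm.

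GRAP2 (ENSG00000100351, chromosome 22, 39901084 to 39973721, plus strand), the adaptor that bridges LAT and LCP2, moved in opposite directions in the knockouts. EV libraries had 33.6, 34.5 and 33.2 CPM, HSP90α-KO 57.4, 58.8 and 59.8 CPM and HSP90β-KO 20.6, 19.4 and 20.1 CPM. No libraries of different groups overlapped. Against EV the log2(FC) was 0.80 in HSP90α-KO (adjusted p = 1e-13 from limma). In HSP90β-KO it was -0.75 (adjusted p = 1.2e-12 from limma). Neither passed the fold threshold, whereas the direct contrast of the knockouts, 1.55 (interval 1.45 to 1.64), did. In the resistance table GRAP2 was 35.1, 34.6 and 35.6 CPM in parental cells and 49.7, 49.5 and 45.1 CPM in PUHr, a log2(FC) of 0.45 (adjusted p = 9.7e-07 from limma). It thus rose in PUHr while LCP2 fell.

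The membrane adaptors were close to silent. LAT (ENSG00000213658, chromosome 16, 28984826 to 28990784, plus strand), the hub of the T cell and mast cell signalosome, had 8 to 18 reads per library in the knockout table. Its 95% confidence intervals were -0.91 to 0.35 in HSP90α-KO and -0.84 to 0.42 in HSP90β-KO, wide enough that smaller differences were not detectable at this depth. In the resistance table it had 25, 17 and 14 reads in parental cells and 24, 44 and 31 reads in PUHr. These overlap. The log2(FC) of 0.71 had an adjusted p of 0.032 from limma, which rested on single libraries: without PUHr replicate 2 it was 0.50 (adjusted p = 0.13), without PUHr replicate 3 it was 0.69 (adjusted p = 0.081), without parental replicate 2 it was 0.64 (adjusted p = 0.094) and without parental replicate 3 it was 0.59 (adjusted p = 0.12). LAT2 (ENSG00000086730, chromosome 7, 74199652 to 74229834, plus strand), its relative in B cells and myeloid cells, had 24 to 49 reads in all 15 libraries. Its groups overlapped in all 4 comparisons and the smallest adjusted p from limma was 0.38. GRAP (ENSG00000154016, chromosome 17, 19020656 to 19047011, minus strand), a GRB2 relative of lymphocytes, had 0 reads in each of the 6 resistance libraries. A count of 0 allows up to 3 reads, or 0.141 CPM in the library of lowest depth, by counting error alone. Its near identical copy GRAPL makes reads on GRAP uncertain in any case.

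SYK (ENSG00000165025), on the plus strand of chromosome 9 from 90801787 to 90898549, encodes the kinase that starts the cascade. Parental libraries had 40.2, 39.9 and 38.5 CPM and PUHr libraries 0.522, 0.502 and 0.445 CPM, that is 951, 951 and 821 reads against 13, 12 and 10. The transcript was nearly lost in all 3 PUHr libraries. The parental mean was 80.7 times the PUHr mean, with a log2(FC) of -6.11 (interval -6.34 to -5.87, adjusted p = 1e-14 from limma). It ranked 13 from the lowest among the 16503 tested genes. With 1 CPM added before the logarithm it was -4.69. In the knockout table SYK varied little. It was 69.4, 70.1 and 74.3 CPM in EV, 55.7, 56.6 and 53.5 CPM in HSP90α-KO and 68.3, 67.8 and 66.2 CPM in HSP90β-KO. It fell in HSP90α-KO by 0.37 on the log2 scale (adjusted p = 1.9e-08 from limma). In HSP90β-KO the log2(FC) was -0.08 (interval -0.16 to 0.00, adjusted p = 0.13 from limma). Under quantile normalization it passed (adjusted p = 0.048), as it did with median centring (adjusted p = 0.023).

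BTK (ENSG00000010671, chromosome X, 101349338 to 101390796, minus strand), the TEC family kinase of B cells and myeloid cells, was the most abundant of the 9 per exon length in EV. It was 300, 292 and 293 CPM in EV, 211, 209 and 220 CPM in HSP90α-KO and 296, 296 and 291 CPM in HSP90β-KO. HSP90α-KO stood below the other groups, which overlapped. The log2(FC) was -0.47 in HSP90α-KO (interval -0.53 to -0.41, adjusted p = 2.8e-13 from limma). In HSP90β-KO it was 0.00 (interval -0.06 to 0.06). The 40 tested genes nearest to BTK, from 77825747 to 103675496 on chromosome X, had a median log2(FC) of -0.89 in HSP90α-KO and of -0.03 in HSP90β-KO, so that in HSP90α-KO BTK lay in a stretch of lowered genes. The part of that stretch in the lower level of BTK was not tested. In PUHr BTK was 169, 164 and 166 CPM against 241, 242 and 233 CPM in parental cells. The log2(FC) was -0.52 (adjusted p = 4.1e-10 from limma), beside a median of -0.15 over 40 neighbours. BTK therefore remained at a high level in PUHr, where SYK did not.

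VAV1 (ENSG00000141968, chromosome 19, 6772708 to 6857366, plus strand), a RAC exchange factor of blood cells that binds LCP2, was 39.3, 37.6 and 35.3 CPM in parental cells. In PUHr it was 4.66, 4.60 and 5.12 CPM, a mean 7.80 times lower and no overlap. This was a log2(FC) of -2.94 (interval -3.10 to -2.79, adjusted p = 2e-13 from limma). In the knockout table VAV1 rose modestly in HSP90α-KO. It was 54.5, 57.4 and 55.5 CPM in EV, 81.6, 85.8 and 79.8 CPM in HSP90α-KO and 58.0, 60.8 and 58.5 CPM in HSP90β-KO. Its log2(FC) against EV was 0.56 in HSP90α-KO (adjusted p = 5.9e-12 from limma). In HSP90β-KO it was 0.08 (adjusted p = 0.12 from limma).

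PLCG2 (ENSG00000197943, chromosome 16, 81779279 to 81962685, plus strand), the phospholipase C gamma of B cells, platelets and myeloid cells, behaved like VAV1 in PUHr and unlike it in HSP90α-KO. Parental libraries had 18.9, 20.3 and 19.0 CPM and PUHr libraries 2.25, 2.47 and 2.18 CPM, a mean 8.44 times lower. The difference was -3.03 on the log2 scale (interval -3.23 to -2.83, adjusted p = 2.2e-12 from limma). In EV the level was 62.1, 62.2 and 63.3 CPM, in HSP90α-KO 42.0, 40.3 and 41.2 CPM and in HSP90β-KO 52.4, 53.6 and 52.4 CPM. The 3 groups were separated, with HSP90α-KO lowest. Against EV the value was -0.60 on the log2 scale in HSP90α-KO (adjusted p = 1.3e-12 from limma). In HSP90β-KO it was -0.24 (adjusted p = 2.8e-05 from limma).

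**Figure D2:**
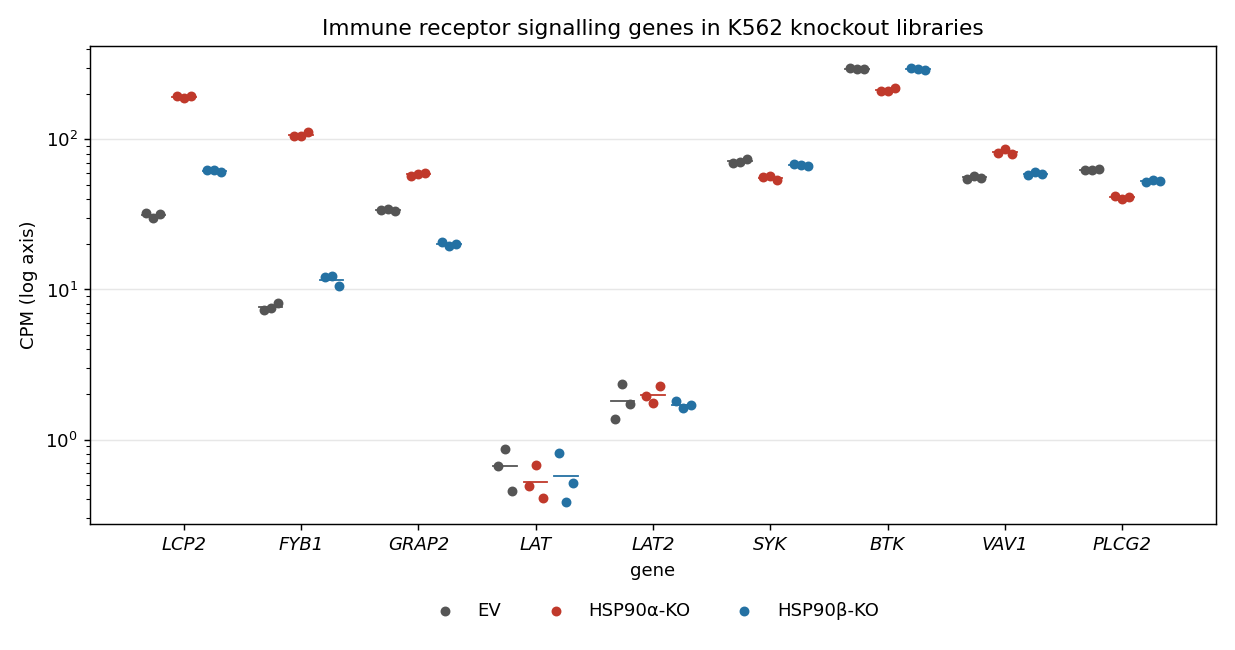
Level of 9 genes in CPM (log axis) in each library of EV, HSP90α-KO and HSP90β-KO, with points for the 3 libraries of a group and lines for their mean. From EV to HSP90α-KO the points of LCP2 and FYB1 rise, to 188 to 194 and 105 to 111 CPM, below those of BTK at 209 to 220 CPM, while LAT and LAT2 lie lowest, with LAT2 at most at 2.36 CPM.

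**Figure D3:**
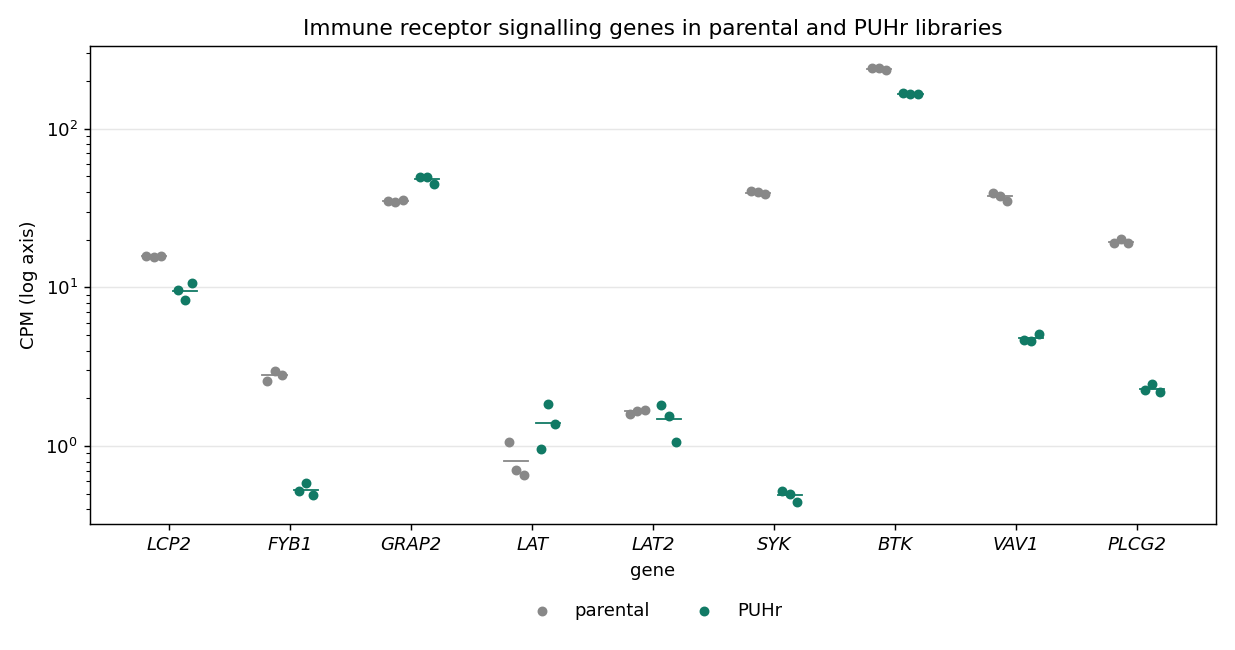
Level of the same genes in CPM (log axis) in each library of parental and PUHr cells, with points for the 3 libraries of a group and lines for their mean. SYK falls from 38.5 to 40.2 CPM in parental libraries to 0.445 to 0.522 CPM in PUHr, and BTK is at 164 to 169 CPM in PUHr.

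The promoters of the 5 members that were changed against EV or parental cells are shown. LCP2 and FYB1 were changed and higher in HSP90α-KO, and SYK, VAV1, PLCG2 and FYB1 changed and lower in PUHr. The 5 did not move as 1 set, since SYK and PLCG2 had log2(FC) values of -0.37 and -0.6 in HSP90α-KO. Sequences are the 250 bases before a start site from RefSeq on GRCh38.p14, written 5′ to 3′ in the direction of the gene. For genes with several starts the one nearest to the canonical start in GENCODE was taken, and 9 of the 10 members had an entry. The windows are chr5:170297778-170298027, minus strand, for LCP2, chr19:6772458-6772707, plus strand, for VAV1, chr9:90801569-90801818, plus strand, for SYK, chr5:39219564-39219813, minus strand, for FYB1, and chr16:81738791-81739040, plus strand, for PLCG2. The FYB1 window lies within the longer annotated gene, and the PLCG2 window lies 40250 bases before the canonical start. Capitals mark AGGAAGT, a core recognised by ETS family factors.
LCP2: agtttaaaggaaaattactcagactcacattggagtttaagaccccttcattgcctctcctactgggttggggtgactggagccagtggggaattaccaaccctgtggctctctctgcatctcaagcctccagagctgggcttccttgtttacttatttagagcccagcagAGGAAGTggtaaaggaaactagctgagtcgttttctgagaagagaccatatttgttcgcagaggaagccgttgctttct
VAV1: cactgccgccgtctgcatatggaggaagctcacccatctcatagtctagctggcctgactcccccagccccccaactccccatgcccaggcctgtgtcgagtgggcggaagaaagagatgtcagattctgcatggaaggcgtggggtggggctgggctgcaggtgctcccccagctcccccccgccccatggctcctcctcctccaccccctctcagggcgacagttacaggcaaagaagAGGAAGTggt
SYK: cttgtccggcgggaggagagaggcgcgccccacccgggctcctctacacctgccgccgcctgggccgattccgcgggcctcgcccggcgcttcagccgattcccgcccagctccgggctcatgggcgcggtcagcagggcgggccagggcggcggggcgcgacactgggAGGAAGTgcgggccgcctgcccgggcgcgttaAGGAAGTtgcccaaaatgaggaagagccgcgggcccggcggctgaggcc
FYB1: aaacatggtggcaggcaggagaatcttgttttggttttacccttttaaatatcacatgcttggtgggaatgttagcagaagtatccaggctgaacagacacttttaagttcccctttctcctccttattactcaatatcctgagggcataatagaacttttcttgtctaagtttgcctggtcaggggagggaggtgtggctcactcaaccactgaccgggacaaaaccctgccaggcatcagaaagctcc
PLCG2: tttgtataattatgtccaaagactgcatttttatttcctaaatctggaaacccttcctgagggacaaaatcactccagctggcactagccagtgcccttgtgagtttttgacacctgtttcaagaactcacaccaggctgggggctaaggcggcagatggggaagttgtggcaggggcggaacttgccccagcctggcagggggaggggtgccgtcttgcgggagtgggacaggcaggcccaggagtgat
AGGAAGT was searched on both strands, and the motif was chosen after the sequences had been seen. It begins 79 bases before the start of LCP2, 10 bases before that of VAV1, and 81 and 49 bases before that of SYK, each on the strand of the gene, and it is not among the letters of the FYB1 and PLCG2 windows. The window of the other FYB1 start, not printed here, held it 22 bases before that start. Over all start sites of the members, 6 of 15 windows held it, from 6 genes, FYB1 among them. Of all 35116 promoter windows of this length, 7.01% held it. GATAA, the core bound by GATA factors, was searched in the same way and does not overlap the other motif. It was in 2 of the 15 windows, none of them printed here, and in 20.4% of all windows. The matches are descriptions of sequence, and which start K562 cells use was not tested.

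Set per kb of exons, to allow for unlike gene lengths, the order of the levels differed between the groups. The length counts every annotated exon of a gene and can exceed that of the transcript expressed. The order between genes is therefore approximate, while changes of 1 gene between groups do not depend on the length. In EV, BTK led with 37.8 ± 0.556 CPM per kb (SD, n = 3), followed by SYK at 13.7 and VAV1 at 12.9, whose libraries overlapped, then GRAP2 at 5.46, LCP2 at 4.59, PLCG2 at 3.41, FYB1 at 0.871, LAT2 at 0.400 and LAT at 0.146. In HSP90α-KO, LCP2 came level with BTK, at 28.1 ± 0.482 and 27.3 ± 0.747 CPM per kb (SD, n = 3), and their libraries overlapped. VAV1 followed at 19.1 and FYB1 at 12.1, above SYK at 10.6, GRAP2 at 9.48 and PLCG2 at 2.25 CPM per kb. LCP2 thus moved from the middle of the order to its top. In HSP90β-KO the order of level began with BTK at 37.7, VAV1 at 13.7, SYK at 12.9 and LCP2 at 9.06 CPM per kb, then GRAP2 at 3.24, PLCG2 at 2.88 and FYB1 at 1.32, with no overlap between neighbours.

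The resistance table was normalized apart from the knockout table, so only the order within it is given. In parental cells BTK was at 30.5, VAV1 at 8.67, SYK at 7.59, GRAP2 at 5.67, LCP2 at 2.30, PLCG2 at 1.06, LAT2 at 0.365, FYB1 at 0.316 and LAT at 0.178 CPM per kb, and no neighbours in the order overlapped. In PUHr BTK led at 21.3, then GRAP2 at 7.77, LCP2 at 1.40 and VAV1 at 1.11 CPM per kb. LAT2 at 0.324 and LAT at 0.307 overlapped, and PLCG2 at 0.125, SYK at 0.0940 and FYB1 at 0.0603 CPM per kb came last before GRAP. SYK passed from the upper part of the order to nearly its end.

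**Figure D4:**
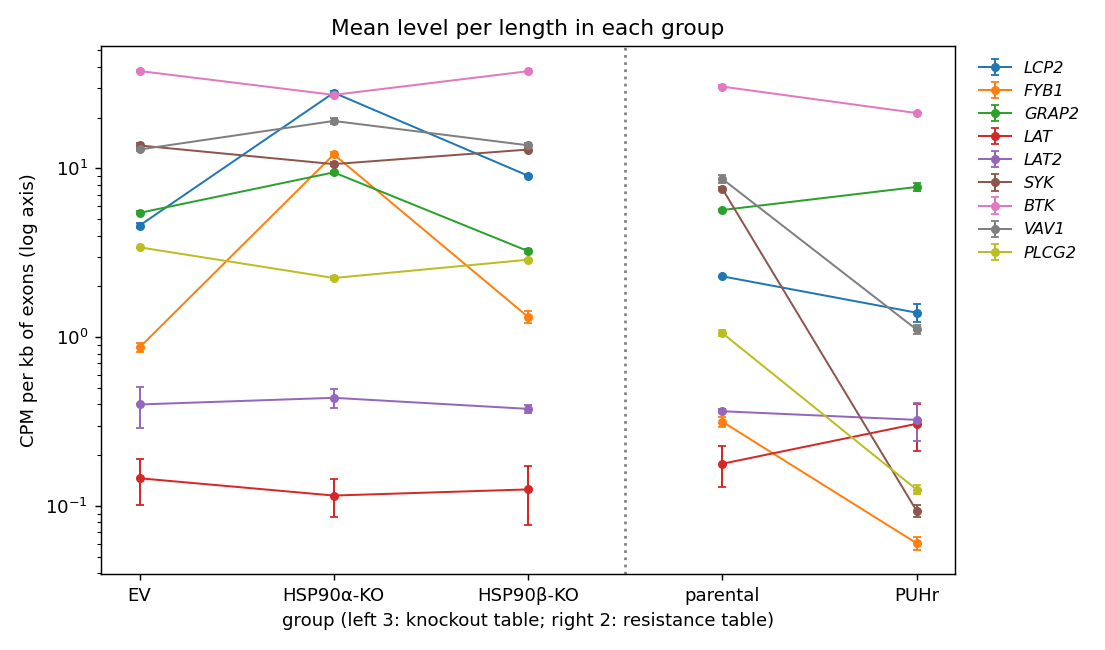
Mean level of 9 genes in CPM per kb of exons (log axis) in the 5 groups, with bars for the SD of 3 libraries and lines joining the values of a gene within a table. LCP2 rises from 4.59 in EV to the level of BTK in HSP90α-KO, and SYK drops from 7.59 in parental cells to 0.0940 in PUHr.

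The genes whose log2(FC) pattern lay nearest to that of LCP2, by Euclidean distance over the 3 comparisons with a control among 11725 others, were CNRIP1 (distance 0.39), RAB30 (0.77), and SP6, ITGAX and GLUL (1.05 each). CNRIP1, which encodes a protein that binds a cannabinoid receptor, had log2(FC) values of 2.54 in HSP90α-KO, 0.63 in HSP90β-KO and -0.88 in PUHr. RAB30, a small GTPase of the Golgi, had 2.19, 0.35 and -0.85. SP6, a transcription factor of the SP family, had 2.06, 0.82 and 0.16, so it did not share the lower level in PUHr. ITGAX, an integrin chain of myeloid cells, had 2.44, 0.26 and -1.465, and GLUL, glutamine synthetase, had 1.98, 0.14 and -0.62. These rest on 5 groups of 3 libraries.

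Around the members that were changed, the medians of neighbouring genes lay near 0. The 40 tested neighbours of LCP2 had a median log2(FC) of 0.09 in HSP90α-KO, those of FYB1 0.05. In PUHr the medians were 0.00 around SYK, 0.05 around VAV1, 0.12 around PLCG2 and 0.00 around FYB1.

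The rest of the pathway was followed in a list of 86 genes by role. The list was chosen with earlier results of these data known, so a share above that of all genes is no support. Of the 86 genes, 67 were tested among the knockouts and 64 in the resistance table. In each case 59 met the filter in every library. In HSP90α-KO 11 were changed and higher (16.4% of those tested) and 9 changed and lower (13.4%), against the 5.32% and 5.01% of all genes. In HSP90β-KO 5 were changed and higher (7.46%) and 1 changed and lower (1.49%), against 1.83% and 2.65%. Between the knockouts, 13 were changed and higher in HSP90α-KO and 12 lower, against 7.14% and 5.57% of all genes. In PUHr 7 were changed and higher (10.9%) and 9 changed and lower (14.1%), against 5.37% and 4.69%. The median log2(FC) of the list was 0.14, 0.02 and -0.06 in HSP90α-KO, HSP90β-KO and PUHr. At the adjusted p alone, 32 were higher and 20 lower in HSP90α-KO, 15 and 14 in HSP90β-KO, 33 and 20 between the knockouts, and 24 and 30 in PUHr. In that order, 77.6%, 43.3%, 79.1% and 84.4% of the list passed, against 54.2%, 34.4%, 59.9% and 51.4% of all tested genes. When 1 CPM was added before the logarithm, 12 genes of the list were changed in HSP90α-KO, 2 in HSP90β-KO and 11 in PUHr, and when genes below a mean log2 CPM of 1 were left out, 3 in HSP90β-KO and 9 in PUHr. Some genes counted as changed, named here after their values were seen, owe their test to the group in which they are high, so their calls are no support. MS4A2 and PIK3R5 would not have passed the filter without HSP90α-KO, FYB2 without HSP90β-KO, GP6 and VAV3 without PUHr, and TYROBP, BMX and DOK2, in the resistance table, without parental cells.

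Among the ITAM receptor chains, 7 of 15 were tested in the knockout table, and 3 were changed and higher and 2 changed and lower in HSP90α-KO. Over all tested genes 5.32% were changed and higher there and 5.01% changed and lower. FCGR2A, an activating Fc receptor of myeloid cells, rose to 168 ± 2.63 CPM from 79.5 ± 3.86 CPM (SD, n = 3), a log2(FC) of 1.08. CD3E, a chain of the T cell receptor complex, was lower, with 3 to 12 reads in HSP90α-KO libraries and 66 to 88 in EV, a log2(FC) of -2.85. The T cell receptor chain CD3D rose in HSP90β-KO to 11.5 ± 0.419 from 4.76 ± 0.267 CPM (SD, n = 3), a log2(FC) of 1.26. In PUHr, 6 chains were tested, with 1 changed and higher and 2 changed and lower, against 5.37% and 4.69% of all tested genes. The higher, GP6, passed the filter only through PUHr and TYROBP, among the lower, only through parental cells, so these had to differ. FCGR2A fell to 8.85 ± 0.331 from 26.2 ± 0.819 CPM (SD, n = 3) and had a log2(FC) of -1.56. It thus moved with LCP2 and FYB1 in HSP90α-KO and PUHr, while in HSP90β-KO, where these were higher, its log2(FC) was 0.03 (adjusted p = 0.62 from limma). Below the level set for naming, and named here after their values were seen, are TYROBP and MS4A2. TYROBP, the adaptor of many myeloid and NK cell receptors, had 12 to 29 reads in EV, 76 to 95 in HSP90α-KO, 12 to 15 in parental cells and 0 to 4 in PUHr. MS4A2, the beta chain of the mast cell IgE receptor, had 0 to 4 reads in EV, 132 to 145 in HSP90α-KO and 1 to 2 in HSP90β-KO.

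Of the other proximal kinases, 5 of 9 were tested in the knockout table, and 0 were changed in HSP90α-KO and 1 in HSP90β-KO. Over all tested genes 5.32% were changed and higher and 5.01% changed and lower in HSP90α-KO, and 1.83% and 2.65% in HSP90β-KO. In PUHr 5 were tested, with 0 changed and higher and 1 changed and lower, against 5.37% and 4.69% of all tested genes. TXK, a TEC family kinase, differed between the knockouts with a log2(FC) of 1.32, higher in HSP90α-KO. The SRC family kinase LYN, which can phosphorylate ITAMs, was among the strongly expressed, at 136 ± 2.32 CPM in EV, 161 ± 3.52 CPM in HSP90α-KO and 133 ± 1.02 CPM in HSP90β-KO (SD, n = 3). It was 180 ± 2.60 CPM in parental cells and 149 ± 5.23 CPM in PUHr (SD, n = 3). The T cell kinase LCK, analysed only in the resistance table, had 0 or 1 reads there, and ZAP70, the relative of SYK, had 1 to 13. These kinases of T cells were thus rare in both groups of that table.

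Of 19 other adaptors, 13 were tested in the knockout table. In HSP90α-KO 0 were changed and higher and 3 changed and lower, against 5.32% and 5.01% of all tested genes. DAPP1, a B cell adaptor that binds phosphoinositides, fell to 2.06 ± 0.483 from 10.3 ± 0.738 CPM (SD, n = 3), a log2(FC) of -2.30. SKAP2, which works with FYB1 in integrin activation, fell to 17.8 ± 1.84 from 36.3 ± 2.05 CPM (SD, n = 3), a log2(FC) of -1.03. In HSP90β-KO, where FYB1 was also higher than in EV, SKAP2 had a log2(FC) of 0.63 (adjusted p = 3.9e-09 from limma). In HSP90β-KO 1 adaptor was changed, FYB2, a relative of FYB1 named here after its values were seen, with 84 to 108 reads in HSP90β-KO, 1 to 5 in EV and 2 in each HSP90α-KO library. It passed the filter only through HSP90β-KO and so had to differ. Of all tested genes, 1.83% were changed and higher in HSP90β-KO and 2.65% changed and lower. Between the knockouts SH2D2A, a T cell adaptor, had a log2(FC) of 1.16. In PUHr 5.37% of all tested genes were changed and higher and 4.69% changed and lower. NCK2, an adaptor to the actin machinery, was the only 1 of 11 tested adaptors that was changed there. It rose to 23.6 ± 3.00 from 4.52 ± 0.103 CPM (SD, n = 3), a log2(FC) of 2.36 (adjusted p = 2.8e-11 from limma), and it had 1.40 between the knockouts.

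Of 28 effectors, 27 were tested in each table. In HSP90α-KO 4 were changed and higher, PIK3R5 among them, and 2 changed and lower, against 5.32% and 5.01% of all tested genes. In HSP90β-KO the counts were 1 and 1, against 1.83% and 2.65%. In PUHr they were 3 and 2, with VAV3 among the higher, against 5.37% and 4.69%. PIK3CD, the leukocyte PI3 kinase, rose in HSP90α-KO to 73.4 ± 3.18 from 30.3 ± 0.417 CPM (SD, n = 3), a log2(FC) of 1.27. MALT1, a paracaspase of the NF-kB route, fell there to 48.6 ± 0.488 from 132 ± 3.05 CPM (SD, n = 3), a log2(FC) of -1.43. The RAS exchange factors RASGRP1 and RASGRP3 moved against each other in the knockouts. RASGRP1 was 2.50 ± 0.105 CPM in EV, 5.10 ± 0.340 in HSP90α-KO and 0.906 ± 0.0750 in HSP90β-KO (SD, n = 3), and its log2(FC) between the knockouts was 2.38. RASGRP3 was 3.42 ± 0.654 CPM in EV, 0.960 ± 0.210 in HSP90α-KO and 7.70 ± 0.118 in HSP90β-KO (SD, n = 3), with a log2(FC) of -2.91 between the knockouts. In PUHr RASGRP3 had 1.16 and RASGRP1 -0.33 (adjusted p = 0.10 from limma). In PUHr WAS, the actin regulator behind Wiskott-Aldrich syndrome, fell to 1.53 ± 0.0261 from 9.07 ± 0.590 CPM (SD, n = 3), a log2(FC) of -2.50. VAV2, a relative of VAV1 found in many tissues, rose to 43.1 ± 3.08 from 19.2 ± 0.468 CPM (SD, n = 3), a log2(FC) of 1.16. It was higher where VAV1 was lower. In the same comparison the exchange factor RASGRP4 had a log2(FC) of -1.71. RASGRP2 had 1.03 in HSP90α-KO against EV. Between the knockouts WAS had 1.20 and the transcription factor NFATC3 had 1.08.

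All 15 inhibitors were tested. In HSP90α-KO 4 were changed and higher and 2 changed and lower, against 5.32% and 5.01% of all tested genes. In HSP90β-KO 0 were changed, against 1.83% changed and higher and 2.65% changed and lower. In PUHr 2 were changed and higher and 4 changed and lower, with DOK2 among the lower, against 5.37% and 4.69%. INPP5D, the phosphatase SHIP1 that ends PI3 kinase signals, had 45.9 ± 3.47 CPM in HSP90α-KO and 7.96 ± 0.276 CPM in EV (SD, n = 3), a log2(FC) of 2.51 (adjusted p = 8.1e-20 from limma). In HSP90β-KO it had 4.58 ± 0.213 CPM (SD, n = 3). In PUHr it fell to 1.50 ± 0.155 from 9.10 ± 0.0676 CPM (SD, n = 3), a log2(FC) of -2.54 (adjusted p = 3.2e-10 from limma). Its direction was that of LCP2 and FYB1 in HSP90α-KO and PUHr. DGKA, a kinase that removes diacylglycerol, had a log2(FC) of 1.43 in HSP90α-KO, and the ubiquitin ligase CBLB had 1.07. UBASH3B, a phosphatase that acts on SYK, went the opposite way. It had 7.96 ± 0.553 CPM in HSP90α-KO, 35.5 ± 1.22 CPM in EV and 56.9 ± 0.882 CPM in HSP90β-KO (SD, n = 3). In PUHr it rose to 123 ± 2.13 from 51.5 ± 2.03 CPM (SD, n = 3), a log2(FC) of 1.26. PTPRC (CD45), a phosphatase that restrains and also primes SRC kinases, was likewise lower in HSP90α-KO and higher in PUHr. It had 102 ± 5.94 CPM in HSP90α-KO, 538 ± 16.0 CPM in EV and 564 ± 3.35 CPM in HSP90β-KO (SD, n = 3), and 165 ± 2.07 CPM in PUHr and 65.8 ± 0.281 CPM in parental cells (SD, n = 3).

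**Figure D5:**
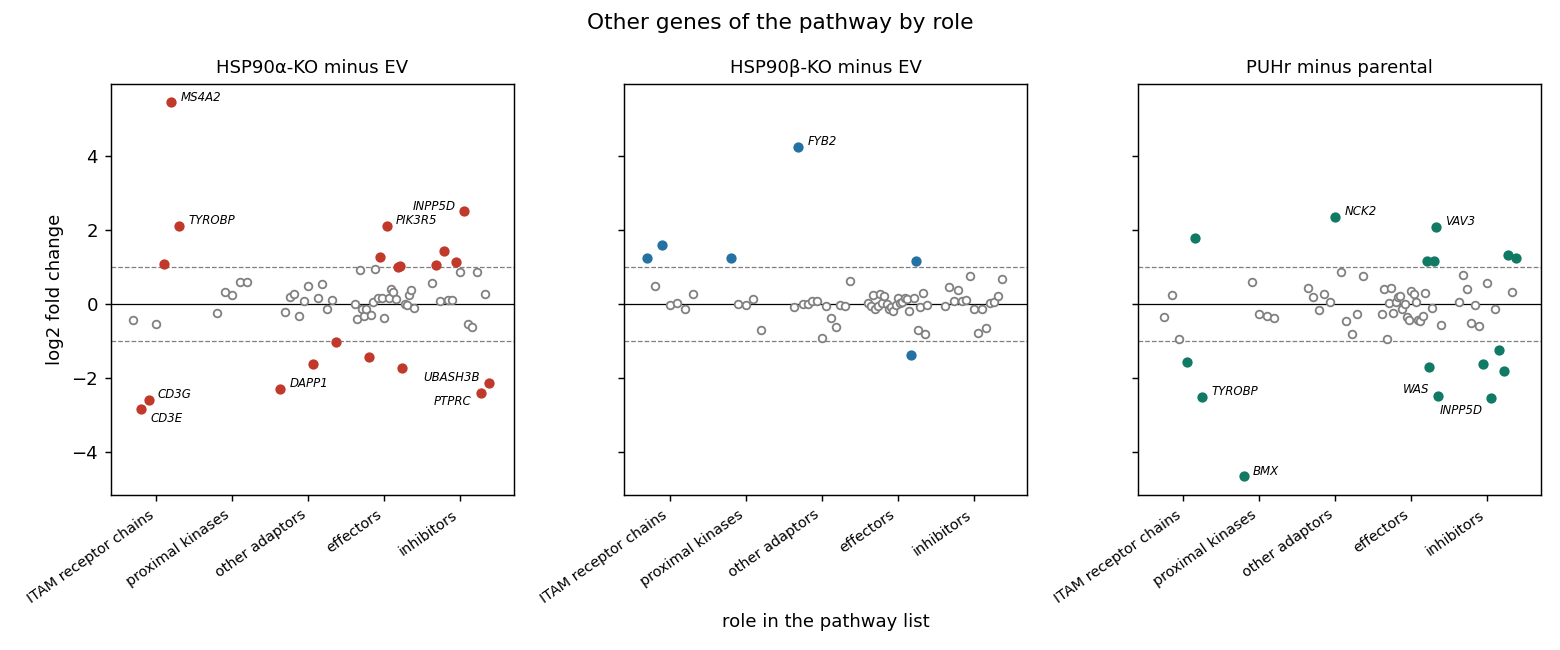
Log2 fold change (vertical axis) of the tested pathway list genes by role in HSP90α-KO minus EV, HSP90β-KO minus EV and PUHr minus parental. Filled points were changed, open points were not, dashed lines mark 1 and -1, and changed genes beyond 2 in either direction are named; INPP5D is at 2.51 in HSP90α-KO and at -2.54 in PUHr.

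Markers of other blood cells were read beside these genes, although all libraries are of the K562 line. In bulk RNA, fewer K562 cells with a transcript and less of it per cell cannot be told apart. Of 6 mast cell and basophil markers, 3 were analysed in the knockout table. Their sum was 9.32 to 10.8 CPM in EV, 44.5 to 45.8 CPM in HSP90α-KO and 9.59 to 10.8 CPM in HSP90β-KO, and KIT was the most abundant in each. In the resistance table the sum of all 6 was 7.93 to 8.75 CPM in parental cells and 8.49 to 9.72 CPM in PUHr, with CPA3, FCER1A and TPSAB1 at 3 reads or fewer in each library. In the knockout table the markers did not move as 1 group. KIT had a log2(FC) of 2.04 in HSP90α-KO, of -0.26 in HSP90β-KO and of 0.68 in PUHr, where LCP2 was lower. HDC had -0.45 in HSP90α-KO (adjusted p = 0.13 from limma), 1.54 in HSP90β-KO and -3.04 in PUHr. MS4A2 passed the filter only through HSP90α-KO, and in the resistance table HDC passed it only through parental cells. These had to differ, so their calls there are no support.

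Of 6 monocyte and neutrophil markers, 3 were analysed in the knockout table, with sums of 242 to 247 CPM in EV, 289 to 298 CPM in HSP90α-KO and 142 to 149 CPM in HSP90β-KO. ITGAM was the most abundant in EV and HSP90β-KO, and CSF3R in HSP90α-KO. The markers differed within the sums. In HSP90α-KO ITGAM had a log2(FC) of -0.27, while LYZ had 0.58 and CSF3R 0.64. In HSP90β-KO LYZ had -0.41, ITGAM -0.42 and CSF3R -1.75. In PUHr LYZ had -0.28, ITGAM -0.47 and CSF3R 0.15 (adjusted p = 0.14 from limma). In the resistance table the sum of all 6 was 65.1 to 67.8 CPM in parental cells and 55.1 to 57.3 CPM in PUHr, led by LYZ, with ELANE and MPO at 3 reads or fewer. Myeloid genes were thus present in all groups, beside the erythroid ones.

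T cell markers summed to 8.75 to 9.72 CPM in EV, 4.88 to 5.75 CPM in HSP90α-KO and 17.8 to 19.7 CPM in HSP90β-KO over 5 of 7 genes. In the resistance table all 7 summed to 11.0 to 11.2 CPM in parental cells and 8.15 to 8.84 CPM in PUHr, with CD2, CD4 and CD8A at 3 reads or fewer. CD3D was the most abundant in each group. Within the sums the genes went apart. In HSP90α-KO CD3E had a log2(FC) of -2.85, CD3G -2.6 and CD3D -0.43, while CD5 had 0.47 (adjusted p = 0.19 from limma). In HSP90β-KO CD3G had 1.59, CD3D 1.26, CD3E 0.5 (adjusted p = 0.14 from limma) and CD5 -0.28 (adjusted p = 0.52 from limma). In PUHr CD3G had -0.95, CD3D -0.34 and CD3E 0.24 (adjusted p = 0.4 from limma). CD3G had at most 1 read in HSP90α-KO libraries. Megakaryocyte and platelet markers, led by ITGA2B, summed to 16.6 to 17.0 CPM in EV, 14.8 to 17.5 CPM in HSP90α-KO and 11.6 to 12.2 CPM in HSP90β-KO over 3 of 6 genes. Over all 6 they summed to 14.0 to 15.0 CPM in parental cells and 9.28 to 11.0 CPM in PUHr, with GP9 and PF4 at 3 reads or fewer. There ITGA2B fell, with a log2(FC) of -1.11, while PPBP and GP6 had 1.97 and 1.79. They had 10 reads or fewer in parental libraries and would not have passed the filter without PUHr. The part of such marker shifts in the levels of the 10 genes was not tested.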

How the data were processed

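Both tables were deposited by the authors as log2 CPM. The authors had trimmed the reads, mapped them with RNA STAR to GRCh38, used featureCounts for the counts per gene, and normalized these with edgeR. The libraries were stranded and sequenced as single reads. Whole reads were recovered from the steps between values. Entries without an identifier, 30 and 114, held 0.0270% to 0.0363% of the reads and were left out. Genes reaching a log2 CPM of -1 in 3 or more libraries, 17039 and 16503, were tested with limma 3.58.1 in R 4.3.3 (lmFit, contrasts, eBayes with an intensity trend, 1 fit per table, two-sided). Adjusted p values are Benjamini-Hochberg over all tested genes. Replicates differed by 1.15 to 4.28 times counting noise (chi-square per degree of freedom).

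The members and gene lists were chosen with earlier results of these data known. Pathway genes were named, up to 6 per role, among changed genes whose mean log2 CPM was at least 1, largest change foremost. LYN, LCK and ZAP70 were named for their roles after their values were seen. Gene positions and exon lengths came from GENCODE 44, which matched 60370 of 60510 identifiers, and promoters from RefSeq. The fit was tested on simulated data. Alternatives covered the filter, pseudocount, normalization, variance model, libraries in the fit, a replicate block, each library left out, and voom.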

Additional observations from a re-analysis of the deposited data

How the results depend on the processing

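Of the 603 recomputed log2 fold changes of members, 586 kept their direction and their side of the adjusted p threshold, 2 gained the threshold, 6 lost it and 9 changed sign. The 6 lost were those of LAT in PUHr, where the adjusted p from limma was also 0.36 without a filter and 0.09 without the intensity trend (range over these alternatives 0.025 to 0.36). With each library left out it ranged from 0.0087 to 0.13, at log2(FC) values of 0.50 to 0.94, and 2 of these 6 fits kept the threshold. The sign changes were among differences that did not pass. Under quantile normalization LAT2 was 0.02 in HSP90β-KO. With each library left out in turn, LAT2 ranged from -0.02 to 0.35 in HSP90α-KO, from -0.22 to 0.14 in HSP90β-KO and from -0.34 to 0.01 in PUHr, LAT from -0.46 to 0.01 in HSP90β-KO and from -0.29 to 0.18 between the knockouts, and BTK from -0.01 to 0.01 in HSP90β-KO.

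With 1 CPM added, 810 genes were changed in HSP90α-KO (1760 in the main fit), 269 in HSP90β-KO (764), 1122 between the knockouts (2166) and 900 in PUHr (1660). With only genes of a mean log2 CPM of 1 or more tested, these were 717, 272, 933 and 751. The tested genes then numbered 12342 for the knockouts (17039 in the main fit) and 12275 for PUHr (16503). In each comparison the changed genes fell by a larger share than the tested genes. Of the pathway list, 12 genes were changed in HSP90α-KO, 2 in HSP90β-KO and 11 in PUHr with 1 CPM added, and 3 and 9 in HSP90β-KO and PUHr with the higher minimum. The cause was not tested. The members changed in HSP90β-KO numbered 0 to 1 with each library left out. FYB1 was not tested in PUHr at the higher minimum, which left 3 members changed there.

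Replicate numbers did not pair the libraries, whose same-numbered deviations correlated by -0.184 to 0.099. With the replicate block, 1759, 763, 2165 and 1662 genes were changed, and 2, 0, 3 and 4 members. Depth limited LAT, LAT2 and, in PUHr, SYK and FYB1, which had under 50 reads per library.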
